A study of Mus musculus with 6 samples.

Results

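The receptors for granulocyte-macrophage colony-stimulating factor (GM-CSF), interleukin-3 (IL-3), IL-4, IL-5 and IL-13, together with the growth factor receptors CSF1R and FLT3, were followed in CD11c+ dendritic cells of mouse spleen, given IL-33 or PBS. The genes were chosen by symbol and not by their values, though with earlier results of these data known. They are Csf2ra, Csf2rb, Csf2rb2, Il3ra, Il5ra, Il4ra, Il13ra1, Il2rg, Csf1r and Flt3, and all 10 were found among the 24346 genes listed in each library. The series holds 3 RNA sequencing libraries of cells treated with IL-33, an alarmin released by injured tissue, and 3 of cells given PBS, its vehicle. Per the labels' protocols, the cells were taken from spleen and sorted on CD11c with an autoMACS magnetic separator, which leaves a mixture of CD11c-bearing and carried-over cells. The labels give no mouse strain, age, dose or time, and do not say whether treatment took place in the animal or in culture. Nor do they state that libraries came from different animals, so the p-values reflect only how these libraries spread, possibly for technical reasons.

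Receptors of this group share chains. Csf2ra, Il3ra and Il5ra encode ligand-binding alpha chains, each of which joins the common beta chain encoded by Csf2rb to signal through JAK2 and STAT5. Mice also have Csf2rb2, a duplicate of Csf2rb whose product serves IL-3 alone. Il4ra pairs with the common gamma chain, encoded by Il2rg, in the type I receptor for IL-4, or with Il13ra1 in the type II receptor for IL-4 and IL-13, and both signal through STAT6. Csf1r and Flt3 encode related receptor tyrosine kinases. CSF1R maintains monocytes and macrophages, and FLT3 drives the production of splenic dendritic cells from their precursors.

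Levels are in FPKM, that is, fragments mapped to a gene divided by transcript length and by library size, as the authors deposited them. These values are scaled for transcript length and can be compared between genes. They carry no read counts, so absolute depth is unknown. From the steps between values of at most 0.3 FPKM, relative depth was 0.946 to 1.07 with IL-33 and 1.00 to 1.22 with PBS, with PBS replicate 1 set to 1. Summed FPKM did separate the groups, at 778391 to 841884 with IL-33 and 614522 to 641412 with PBS. Differences were tested with limma on log2(FPKM + 1), a scale that understates changes of genes at low levels. The Benjamini-Hochberg adjustment ran over the 11518 genes that reached 1 FPKM in 3 or more libraries, and genes with an adjusted p of 0.05 or less were called. All 10 receptor genes were among the genes tested. Changes are IL-33 minus PBS on that log2 scale with a standard error (SE), and means are given ± SD with n = 3 libraries per group.

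The receptors split by chain. Csf2ra, Csf2rb and Il3ra, which make up the receptors for GM-CSF and IL-3, were higher with IL-33 as deposited. Of these, Il3ra was called under every scaling tried, whereas Csf2ra missed the threshold under the 3 other scalings and Csf2rb with equal totals. Flt3, Il2rg and Il13ra1 were lower, and Csf2rb2, Il5ra, Il4ra and Csf1r did not pass the threshold. Thus 3 of the 10 genes were called higher and 3 lower, where 53.6% of all tested genes were called, 28.0% higher and 25.5% lower. Groups did not overlap for 6 of the 10, against 63.6% of all tested genes. As a set the receptors were therefore called about as often as other genes. Their median change was -0.02, and that of all tested genes was 0.01.

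**Figure D1:**
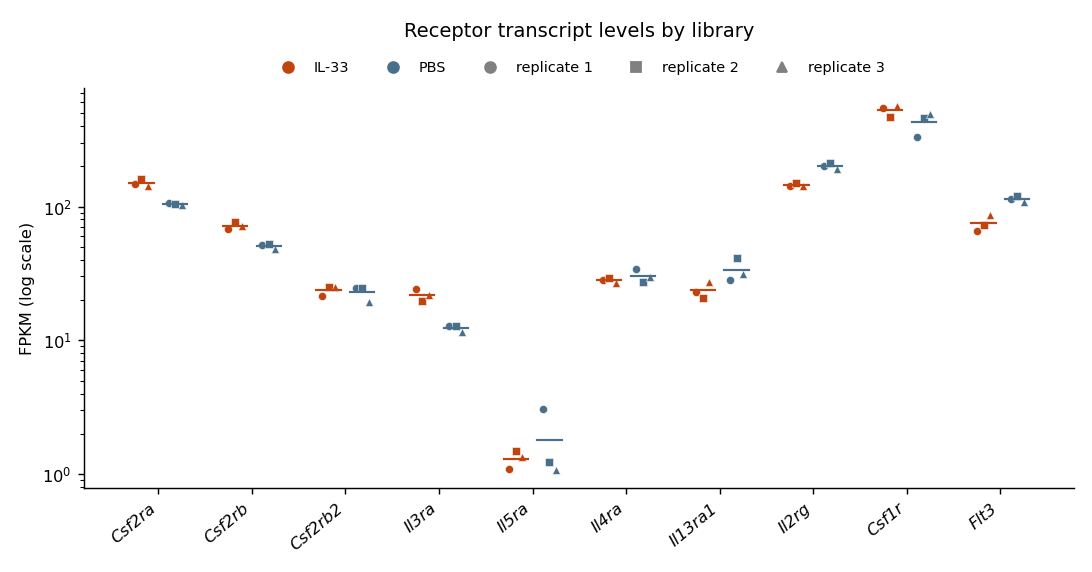
FPKM (vertical axis, log scale) of the 10 receptor genes in each library, with IL-33 in orange left of PBS in blue, marker shape for the replicate number and a bar for the group mean. The 3 orange markers lie above the blue for Csf2ra, Csf2rb and Il3ra and below them for Il13ra1, Il2rg and Flt3, and PBS replicate 1 stands alone for Il5ra at 3.06 FPKM.

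The order of the levels changed between treatments. Csf1r was the most abundant receptor transcript in both groups and Il5ra the least abundant. In IL-33 libraries Csf2ra (150.5 ± 9.48 FPKM) and Il2rg (145 ± 4.85 FPKM) came next, with overlapping ranges. They were followed by Flt3 (74.8 ± 10.8 FPKM) and Csf2rb (72.0 ± 3.79 FPKM), whose ranges also overlapped. In PBS libraries the order after Csf1r was Il2rg (200.5 ± 9.13 FPKM), Flt3 (114 ± 5.85 FPKM), Csf2ra (105 ± 1.86 FPKM) and Csf2rb (51.0 ± 2.19 FPKM), with no overlap between neighbours. Csf2ra thus stood above Flt3 in each IL-33 library, at 2.25, 2.22 and 1.65 times its level in replicates 1, 2 and 3, and below it in each PBS library, at 0.927, 0.875 and 0.952 times. That ratio was chosen after the values were seen and was not tested. At the low end, Csf2rb2, Il13ra1 and Il3ra overlapped in the IL-33 group, between 19.8 and 27.1 FPKM, whereas in the PBS group Il13ra1 and Il4ra overlapped and Csf2rb2 and Il3ra followed apart from them. The spread between libraries, as SD over mean, was 3.34% to 15.9% in the IL-33 group and 1.78% to 61.6% in the PBS group, with Il5ra at the top of both.

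Among the ligand-binding alpha chains, the GM-CSF chain gene Csf2ra (chromosome 19, 61223957 to 61228429, minus strand, GRCm38) was at 147, 161 and 143 FPKM in the IL-33 libraries (here and below in the order of replicates 1, 2 and 3), against 106, 105 and 103 FPKM in the PBS libraries. Every IL-33 library lay above every PBS library. The means differed 1.44-fold, with a log2 change of 0.52 (SE 0.07, limma adjusted p = 0.00115). The call was lost with equal totals, quantile normalization and cyclic loess, under which the change was 0.18 to 0.21 (adjusted p = 0.0635 to 0.103). The IL-3 chain gene Il3ra (chromosome 14, 14346275 to 14356011, plus strand) had 23.998, 19.8 and 21.9 FPKM with IL-33 and 12.8, 12.8 and 11.5 FPKM with PBS. This was the largest rise among the receptors, 1.77-fold in the means and 0.77 on the log2 scale (SE 0.09, limma adjusted p = 0.000771), which placed it at percentile 94.0 of the changes of all tested genes. Its level stood at percentile 65.9 of tested genes with IL-33 and 49.9 with PBS.

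Il5ra, the IL-5 chain gene of eosinophils and of a subset of B cells (chromosome 6, 106710357 to 106749037, minus strand), was near the lower limit of the test. It was at 1.08, 1.49 and 1.34 FPKM with IL-33 and at 3.06, 1.23 and 1.07 FPKM with PBS. PBS replicate 1 was the high library, and the other 5 overlapped. The change was -0.21 (95% interval -0.79 to 0.37, limma adjusted p = 0.502) and turned to 0.09 (adjusted p = 0.591) without PBS replicate 1. The marker genes of cells known to carry this receptor did not move alike. The 10 eosinophil markers summed to 886 to 1265 FPKM with IL-33 and 223 to 319.5 FPKM with PBS, with Epx, Ear1 and Ear6 listed at 0 in at least 1 PBS library. Those 3 passed the filter through the IL-33 libraries alone, and of the other 7 markers 5 were called higher and none lower. The 12 B cell markers summed to 426 to 569 FPKM with IL-33 and to 908, 512 and 388 FPKM in PBS replicates 1, 2 and 3, so the library highest for Il5ra was also the highest for B cell markers. That library had the highest sums of plasmacytoid dendritic cell markers (680.3 FPKM) and of platelet and red cell markers (504 FPKM) as well. No B cell marker was at 0 in a PBS library. No B cell marker was called higher and 3 were called lower. Of all tested genes 28.0% were called higher and 25.5% lower. The part of either cell type in the Il5ra values was not tested. Because these are bulk samples, fewer cells of a type and less RNA per cell cannot be told apart here or below.

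The common beta chain gene Csf2rb, through which the receptors for GM-CSF, IL-3 and IL-5 signal, was higher with IL-33 in every library. It stood at 68.4, 76.0 and 71.8 FPKM in the IL-33 libraries, against 51.9, 52.6 and 48.5 FPKM in the PBS libraries. The means differed 1.41-fold, with a log2 change of 0.49 (SE 0.07, limma adjusted p = 0.00145). With equal totals the change was 0.16 and the call was lost (adjusted p = 0.15). Its duplicate Csf2rb2 had 21.4, 24.8 and 25.2 FPKM with IL-33 and 24.6, 24.6 and 19.5 FPKM with PBS, and the groups overlapped. Its change was 0.06 (95% interval -0.20 to 0.32, limma adjusted p = 0.676), turning to -0.05 without PBS replicate 3 and to -0.27 with libraries rescaled to equal totals.

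The beta chain genes are neighbours on chromosome 15. Csf2rb2 lies on the minus strand from 78282507 to 78305721 and Csf2rb on the plus strand from 78325752 to 78353847 (GRCm38), with 20030 bases between them. Their coding sequences, of 2688 bases for Csf2rb and 2634 bases for Csf2rb2 in GENCODE M21, aligned over 2628 bases with 95.2% identity. The longest identical run was 242 bases, and windows of the Csf2rb coding sequence also occurred in that of Csf2rb2 in 39.6% of cases at 31 bases, 26.0% at 50, 15.8% at 75 and 11.0% at 100. Reads from such windows could be divided between the genes. Read length is not given in the sources used here, so how far this makes the individual values uncertain is not known. The 90-base coding window with the most differences is shown because it marks where the transcripts are easiest to tell apart. It runs from coding base 308 of Csf2rb (chr15:78338897-78338986, plus strand) and from coding base 311 of Csf2rb2 (chr15:78294345-78294434, minus strand), 5′ to 3′ on the coding strand, with the 16 bases that differ in capitals.
Csf2rb: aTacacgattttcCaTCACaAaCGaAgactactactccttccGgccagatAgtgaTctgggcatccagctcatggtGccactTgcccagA
Csf2rb2: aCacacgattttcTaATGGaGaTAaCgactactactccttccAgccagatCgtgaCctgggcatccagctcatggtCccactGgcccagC

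Ratios within a library do not depend on a single scaling factor per library, such as that of equal totals. Quantile normalization and cyclic loess scale by level and can change them, and the ratios were not run under those scalings. In all, 5 such ratios were compared, each by exact permutation over the 6 libraries (two-sided), which with 3 libraries a group cannot give a p below 0.1. Csf2rb2 stood at 0.313, 0.327 and 0.351 times the level of Csf2rb with IL-33 and at 0.473, 0.468 and 0.401 times with PBS. The groups did not overlap, and the log2 ratio differed by -0.44 (exact p = 0.1, 0.167 adjusted over the 5 ratios). By contrast Csf2ra stood at 2.16, 2.12 and 1.99 times the level of Csf2rb with IL-33 and at 2.05, 1.99 and 2.12 times with PBS, a log2 difference of 0.03 within the spread of the libraries (exact p = 0.5, adjusted 0.625). As deposited, the alpha and common beta transcripts of the GM-CSF receptor therefore kept nearly the same proportion in all 6 libraries while both were higher with IL-33. Il3ra was at 0.351, 0.261 and 0.305 times the level of Csf2rb in the IL-33 libraries, above the 0.247, 0.243 and 0.238 times of the PBS libraries; this ratio was added after the values were seen and was not tested.

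**Figure D2:**
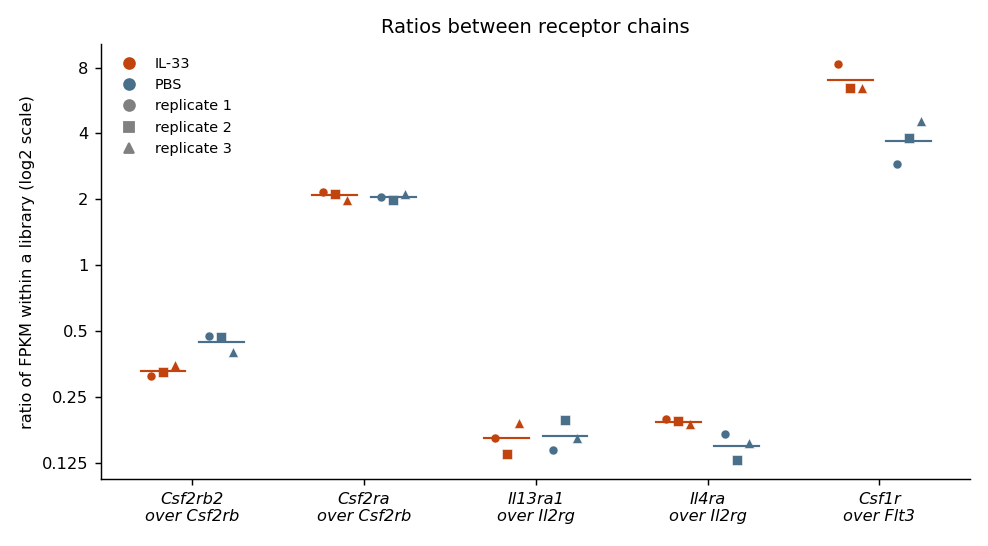
Ratio of FPKM between receptor chains within each library (vertical axis, log2 scale), IL-33 in orange left of PBS in blue, with bars for geometric means. Csf2rb2 over Csf2rb, Il4ra over Il2rg and Csf1r over Flt3 separate the groups, while Csf2ra over Csf2rb stays between 1.99 and 2.16 in all libraries.

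For the IL-4 and IL-13 receptors, the gene of the shared ligand-binding chain and those of its partners behaved differently. Il4ra (chromosome 7, 125552120 to 125579474, plus strand) was at 28.1, 29.2 and 26.8 FPKM with IL-33 and 33.9, 27.2 and 29.5 FPKM with PBS. The groups overlapped and the change of -0.10 did not pass (95% interval -0.31 to 0.11, limma adjusted p = 0.379), although it did with equal totals (-0.43, adjusted p = 0.00935; the adjusted p lay between 0.00935 and 0.88 over all settings). Il2rg (X chromosome, 101264378 to 101268255, minus strand) was at 142, 151 and 143 FPKM in the IL-33 libraries, against 199, 210.1 and 192 FPKM in the PBS libraries. It fell in every IL-33 library relative to every PBS library, to 72.4% of the PBS mean (log2 change -0.46, SE 0.06, limma adjusted p = 0.00146). Il13ra1 (X chromosome, 36112110 to 36171259, plus strand) was at 23.0, 20.8 and 27.1 FPKM with IL-33 and 28.4, 41.3 and 31.3 FPKM with PBS. The groups did not overlap, but IL-33 replicate 3 and PBS replicate 1 lay close together. Its change of -0.48 (SE 0.15, limma adjusted p = 0.0298) was no longer called without IL-33 replicate 1 (-0.47, adjusted p = 0.0817), IL-33 replicate 2 (-0.40, adjusted p = 0.0897) or PBS replicate 2 (-0.33, adjusted p = 0.0683).

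Relative to Il2rg, Il4ra was at 0.198, 0.193 and 0.188 with IL-33 and at 0.170, 0.129 and 0.154 with PBS. That was a log2 difference of 0.36 without overlap (exact p = 0.1, 0.167 adjusted over the 5 ratios). The ratio of Il13ra1 to Il2rg, which sets the partner of the type II receptor against that of the type I receptor, was 0.162, 0.138 and 0.190 with IL-33 and 0.143, 0.197 and 0.163 with PBS. The difference of -0.04 was smaller than the spread of the libraries (exact p = 0.7, adjusted 0.7). It turned to 0.08 without IL-33 replicate 2 and to 0.09 without PBS replicate 2. With cyclic loess, which scales by level, Il13ra1 changed by -0.57 and Il2rg by -0.84, against -0.48 and -0.46 as deposited.

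The common gamma chain is also part of lymphocyte receptors, and T and NK cell transcripts were lower with IL-33, as was Il2rg. Of 12 T cell markers, 2 passed the filter through the PBS libraries alone, and of the other 10 markers 9 were called lower and none higher. The 12 summed to 79.9 to 107 FPKM with IL-33 and 195 to 405 FPKM with PBS. Of 12 NK cell markers 11 were called lower and none higher, with sums of 253 to 407 FPKM with IL-33 and 679 to 921 FPKM with PBS. Of all tested genes 25.5% were called lower and 28.0% higher. No marker of either list was at 0 in a PBS library. Within the PBS group the order differed: PBS replicate 3 had the highest sum of T and of NK cell markers and the lowest Il2rg of the 3. Other lymphocyte lists did not move alike. The B cell sums overlapped, at 426 to 569 FPKM with IL-33 and 388 to 908 FPKM with PBS. Of the 12 B cell markers 3 were called lower and 9 did not pass. Plasma cell markers were mostly higher with IL-33 and are given in the closing section. The part of lymphocytes in the fall of Il2rg was not tested.

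Csf1r (chromosome 18, 61100598 to 61132149, plus strand), the receptor for CSF-1 and IL-34, was the highest receptor transcript. It was at 545, 469 and 562 FPKM with IL-33, against 333, 457 and 493 FPKM with PBS. The groups overlapped, with PBS replicate 1 the low library. The change of 0.31 did not pass (95% interval -0.04 to 0.67, limma adjusted p = 0.12). It was -0.028 with equal totals, -0.14 with quantile normalization and -0.13 with cyclic loess, so its direction depended on the scaling. Csf1r varied across libraries with the macrophage markers, whose 12 genes summed to 5151, 4036 and 5458 FPKM with IL-33 and to 2727, 4016 and 4634 FPKM with PBS. Of these markers 3 were called higher and none lower, where 28.0% of all tested genes were called higher and 25.5% lower. None of the markers were called higher without IL-33 replicate 1 or IL-33 replicate 3, and 1 without PBS replicate 1 or PBS replicate 2. None were at 0 in a PBS library. As a share of that sum Csf1r was 10.6%, 11.6% and 10.3% with IL-33 and 12.2%, 11.4% and 10.6% with PBS, so the share overlapped between treatments. That share was chosen after the values were seen and was not tested.

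Flt3 (chromosome 5, 147330741 to 147400489, minus strand) was the receptor with the largest fall. It was at 65.4, 72.5 and 86.6 FPKM with IL-33, against 115, 119 and 108 FPKM with PBS, and the groups did not overlap. Its mean with IL-33 was 65.7% of that with PBS (log2 change -0.61, SE 0.11, limma adjusted p = 0.00319), at percentile 8.19 of all tested changes. The ratio of Csf1r to Flt3 was 8.33, 6.48 and 6.48 with IL-33 and 2.90, 3.83 and 4.58 with PBS. It was 1.90-fold higher with IL-33 by geometric means, a log2 difference of 0.93 without overlap (exact p = 0.1, 0.167 adjusted over the 5 ratios). The difference lay between 0.75 and 1.08 when any 1 library was left out.

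Dendritic cell markers moved in both directions beside Flt3. Itgax, which encodes the CD11c antigen of the sort, was at 272, 299.9 and 276 FPKM with IL-33 and 228, 249 and 247 FPKM with PBS. Zbtb46, a transcription factor of conventional dendritic cells, was at 22.5, 22.3 and 25.8 FPKM with IL-33, against 36.1, 37.6 and 36.9 FPKM with PBS. Beside the counts of calls that follow, 28.0% of all tested genes were called higher and 25.5% lower. Of 12 plasmacytoid dendritic cell markers 8 were called lower and none higher, with sums of 403 to 511 FPKM with IL-33 and 448 to 680 FPKM with PBS. Siglech, a lectin of those cells, was at 12.6, 11.5 and 13.1 FPKM with IL-33 and 59.2, 57.6 and 36.5 FPKM with PBS. Among 10 markers of type 1 conventional dendritic cells 3 were called higher and 6 lower, with sums of 610 to 650.2 FPKM with IL-33 and 465 to 536 FPKM with PBS. That sum was led by Batf3, whereas the chemokine receptor gene Xcr1 was at 7.06, 7.28 and 8.61 FPKM with IL-33 and 14.6, 14.4 and 16.7 FPKM with PBS. Of 12 type 2 markers 4 were called higher and 4 lower, with sums of 931 to 1047 FPKM with IL-33 and 786 to 984 FPKM with PBS. Of 10 markers shared by conventional dendritic cells 5 were called higher and 3 lower, with sums of 34503 to 37314 FPKM with IL-33 and 23314 to 25146 FPKM with PBS. Nearly all of that sum came from Cd74, H2-Aa, H2-Ab1 and H2-Eb1, all called higher, whereas Zbtb46, Btla and Ciita were called lower. With cyclic loess 0 of the 10 were called higher and 5 lower, against 23.7% and 23.0% of all tested genes. No marker of these 4 lists was at 0 in a PBS library. The part of a shift between dendritic cell types in the fall of Flt3 was not tested.

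IL-3 receptor transcripts are carried by basophils and mast cells, and the summed markers of these cells were higher with IL-33, as was Il3ra. The 10 basophil and mast cell markers summed to 20.4 to 34.6 FPKM with IL-33 and 6.57 to 8.87 FPKM with PBS, with Prss34 and Tpsb2 listed at 0 in at least 1 PBS library. Of the 6 that passed the expression filter 5 did so through the IL-33 libraries alone, so no count of calls is given for this list. The basophil protease gene Mcpt8 was at 10.2, 10.5 and 5.03 FPKM with IL-33 and 0.108, 0.497 and 0.356 FPKM with PBS. The IgE receptor chain gene Fcer1a was at 1.32, 0.743 and 0.793 FPKM with IL-33 and 0.0833, 0.0765 and 0.137 FPKM with PBS. Hdc had the highest mean of the list over the 6 libraries and passed the filter through both groups. It was at 4.99, 6.41 and 4.28 FPKM with IL-33 and 4.79, 4.83 and 6.80 FPKM with PBS, and did not pass the threshold (log2 change -0.06, limma adjusted p = 0.793). Within the IL-33 group the order differed: replicate 3 had the lowest marker sum and replicate 2 the lowest Il3ra. The part of basophils in the rise of Il3ra was not tested.

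**Figure D3:**
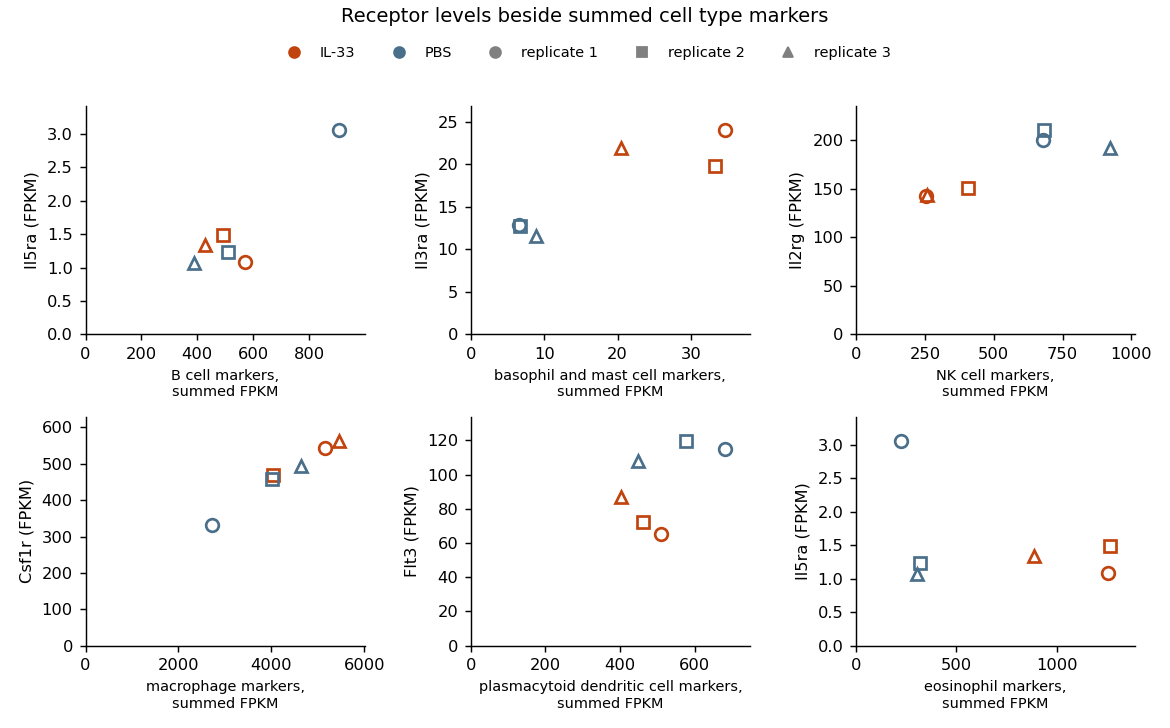
Receptor FPKM (vertical axes) against the summed FPKM of cell type markers (horizontal axes) in each library, IL-33 in orange and PBS in blue, with marker shape for the replicate number. Il5ra is highest in the PBS library with the highest B cell sum, and Csf1r and the macrophage sum are both lowest in PBS replicate 1. Il3ra and Il2rg separate by treatment, as do the basophil and NK cell sums and 63.6% of all tested genes. Il5ra is not higher in the IL-33 libraries, where the eosinophil sum is higher. Flt3 separates by treatment while the plasmacytoid dendritic cell sums overlap, and within the IL-33 group the 2 run in opposite orders.

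How libraries were scaled mattered for the GM-CSF receptor. Equal totals moved the median change of all tested genes to -0.29, from which changes under that scaling are read. It also turned the balance of calls, to 11.0% of all tested genes higher and 50.9% lower, 62.0% in all. With it 1 receptor was called higher and 4 lower. With quantile normalization 2 were called higher and 3 lower, against 22.1% of all tested genes higher and 47.1% called in all. The counts were the same with cyclic loess, against 23.7% higher and 46.7% called in all. With equal totals Csf2ra changed by 0.18 (adjusted p = 0.0749) and Csf2rb by 0.16 (adjusted p = 0.15), which no longer passed but lay 0.47 and 0.45 above that median, compared with 0.51 and 0.48 as deposited. Csf2ra also missed the threshold with quantile normalization (0.21, adjusted p = 0.0635) and cyclic loess (0.18, adjusted p = 0.103), whereas Csf2rb passed with both (0.27, adjusted p = 0.0238, and 0.26, adjusted p = 0.0282). Il3ra passed under each scaling, between 0.45 and 0.79. Il2rg, Flt3 and Il13ra1 were called lower under each scaling. With equal totals they lay -0.51, -0.65 and -0.52 from the median of all genes, compared with -0.47, -0.62 and -0.49 as deposited. With cyclic loess their changes were -0.84, -0.91 and -0.57.

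**Figure D4:**
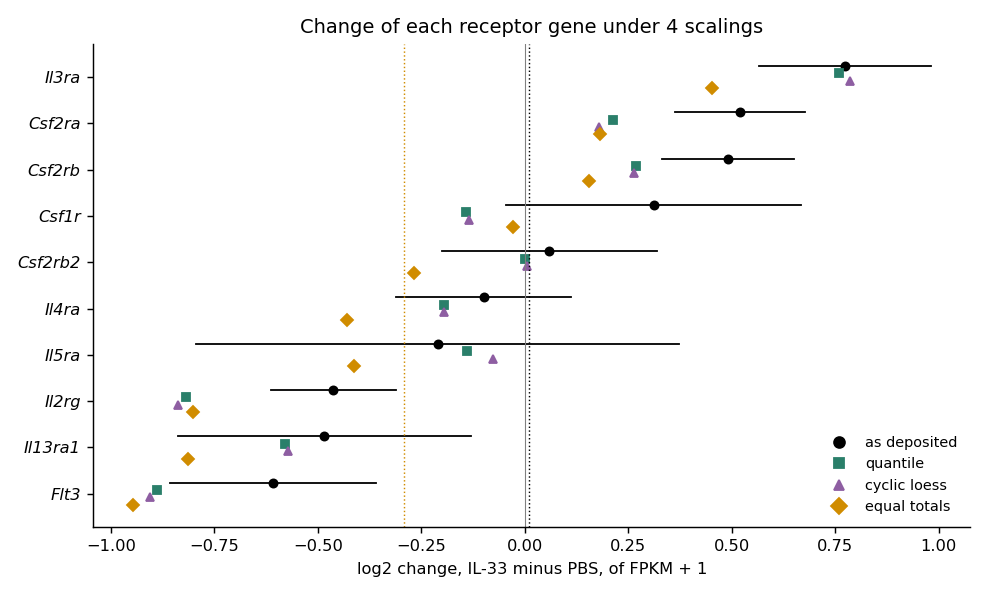
Change of each receptor gene between IL-33 and PBS (horizontal axis, log2 of FPKM + 1) as deposited, with its 95% interval, and under 3 other scalings. Dotted lines mark the median change of all tested genes, 0.01 as deposited in black and -0.29 with equal totals in yellow. Il3ra stays right of 0 and Flt3, Il2rg and Il13ra1 stay left of it under each scaling, while Csf1r crosses 0.

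Promoter windows, from 250 bases before to 50 after the annotated start (RefSeq, GRCm38.p6), were found for 8 of the 10 genes. They are shown for the called genes Csf2ra and Il3ra, which rose together, and for Flt3, which fell most. Both strands were searched for GAGGAAG (an ETS family core that PU.1 can bind), TTCNNNGAA (STAT5), the STAT6 motif (TTC and GAA with 4 bases between), TGACTCA (AP-1) and the TATA box hexamer, and matches are in capitals. The Csf2ra window (chr19:61228369-61228668, minus strand) held a pair of ETS cores whose first bases lay at -14 and -8 from the start, sharing 1 base. The windows of Il3ra (chr14:14346245-14346544, plus strand) and Flt3 (chr5:147400440-147400739, minus strand) held none of the 5 motifs. Of 32817 promoter windows of the same length, 13.6% held the ETS core, 8.29% the STAT5 motif, 6.94% the STAT6 motif, 5.20% the AP-1 motif and 13.6% the TATA box.
Csf2ra: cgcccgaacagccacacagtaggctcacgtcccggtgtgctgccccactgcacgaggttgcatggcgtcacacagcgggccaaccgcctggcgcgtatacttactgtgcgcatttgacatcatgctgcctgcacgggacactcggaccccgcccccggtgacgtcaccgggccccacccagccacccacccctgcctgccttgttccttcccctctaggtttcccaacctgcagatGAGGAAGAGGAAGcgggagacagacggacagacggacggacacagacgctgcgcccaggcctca
Il3ra: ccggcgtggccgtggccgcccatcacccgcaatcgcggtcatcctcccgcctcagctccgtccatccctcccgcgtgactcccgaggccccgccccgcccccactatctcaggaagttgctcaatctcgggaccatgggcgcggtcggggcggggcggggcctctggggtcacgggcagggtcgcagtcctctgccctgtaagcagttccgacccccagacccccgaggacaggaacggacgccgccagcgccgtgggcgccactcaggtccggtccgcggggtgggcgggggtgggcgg
Flt3: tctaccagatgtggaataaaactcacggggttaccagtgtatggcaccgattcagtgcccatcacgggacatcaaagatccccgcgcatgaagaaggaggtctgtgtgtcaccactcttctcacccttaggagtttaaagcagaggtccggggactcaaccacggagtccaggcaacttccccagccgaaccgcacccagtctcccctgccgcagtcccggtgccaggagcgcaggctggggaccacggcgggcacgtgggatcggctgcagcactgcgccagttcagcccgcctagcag
Among the other windows, those of Il4ra, Il13ra1 and Il2rg held no match. That of Csf2rb2 held 2 ETS cores, at -168 and 28, and a STAT5 motif at -15. That of Il5ra held an AP-1 motif at -99 and a STAT6 motif at 27. The guanine and cytosine content was 74.3% for Il3ra, 65.3% for Csf2ra and 61.0% for Flt3, against a median of 52.7% over all windows.

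Ligands of these receptors, listed together with Tslp, were mostly at low levels in the sorted cells. The receptor for Tslp uses none of the receptor genes followed here. Counts and the median therefore describe the list, not ligands of these receptors alone. Of 14 genes listed, 5 passed the expression filter. Of those, 3 (Il4, Il15 and Tslp) were called higher with IL-33, none lower and 2 not passed (median change 0.68, against 0.01 for all tested genes). With equal totals 2 were called higher, as was the case without any 1 library other than PBS replicate 2. The shares over all tested genes were 28.0% higher and 25.5% lower as deposited, and 11.0% and 50.9% with equal totals. Il4, the ligand of both IL-4 receptor types, was at 3.05, 3.96 and 1.82 FPKM with IL-33 and 1.24, 0.632 and 0.432 FPKM with PBS (log2 change 1.14, SE 0.24, limma adjusted p = 0.00665). Il13, whose product binds the type II and not the type I receptor, was at 1.46, 1.08 and 0.217 FPKM with IL-33. It was listed at 0 in the 3 PBS libraries and did not pass the filter. Il15, whose receptor contains the common gamma chain, was at 26.5, 21.2 and 23.6 FPKM with IL-33 and 11.6, 15.9 and 16.1 FPKM with PBS (log2 change 0.68, SE 0.14, limma adjusted p = 0.0055). Tslp, whose receptor pairs Crlf2 with Il7r, was at 2.81, 2.40 and 2.64 FPKM with IL-33 and 0.294, 2.22 and 0.785 FPKM with PBS (limma adjusted p = 0.0393), and its call was lost with equal totals (0.69, adjusted p = 0.0816).

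The GM-CSF gene Csf2 was at 0.154, 0.0818 and 0.437 FPKM with IL-33 and 0.165, 0.531 and 0.747 FPKM with PBS, below the filter and overlapping. Il3 and Il9 were listed at 0 in all 6 libraries. Il5 reached 0.0479 FPKM in IL-33 replicate 1 and 0.0509 FPKM in replicate 2, and was listed at 0 in the other 4 libraries. The transcript of FLT3 ligand, Flt3l, was at 17.9, 19.2 and 17.7 FPKM with IL-33 and 18.5, 14.3 and 19.8 FPKM with PBS, and its change of 0.07 did not pass (limma adjusted p = 0.649). That of CSF-1, Csf1, was at 3.15, 4.33 and 3.44 FPKM with IL-33 and 4.26, 2.80 and 3.11 FPKM with PBS (change 0.09, limma adjusted p = 0.657). Il34 reached 0.0444 FPKM in PBS replicate 1 and Il2 0.170 FPKM in PBS replicate 2, and both were listed at 0 in every other library. Il7 was between 0.140 and 0.357 FPKM with IL-33 and between 0.0742 and 0.210 FPKM with PBS, and Il21 was listed at 0 in IL-33 replicates 1 and 2, was highest in IL-33 replicate 3 (0.04999 FPKM) and was at 0.0194 to 0.0473 FPKM with PBS.

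Among chains of other cytokine receptors, 4 of 23 tested were called higher, 10 lower and 9 did not pass, against 28.0% higher and 25.5% lower among all tested genes. The median change was -0.24. With equal totals 1 was called higher and 16 lower (median -0.58), where 50.9% of all tested genes were lower. Without IL-33 replicate 1 only 2 were called higher. The 4 with the smallest adjusted p all fell. The IL-17 receptor gene Il17ra averaged 28.2 ± 3.41 FPKM with IL-33 and 69.3 ± 3.02 FPKM with PBS (log2 change -1.27, SE 0.09, limma adjusted p = 0.000201). Tgfbr2, which encodes a TGF-beta receptor, fell by 0.70 (SE 0.07), and Il6st, the shared signalling chain of the IL-6 family, fell by 1.03 (SE 0.10). Il21r, which pairs with the common gamma chain, averaged 34.0 ± 0.654 FPKM with IL-33 and 49.3 ± 2.84 FPKM with PBS (log2 change -0.52, SE 0.07, limma adjusted p = 0.00106).

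Signalling genes just below the receptors were called about as often as other genes. Of 25 tested, 5 were called higher, 9 lower and 11 did not pass, where 53.6% of all tested genes were called, and the median change was -0.14. The largest fall of the list was that of Cbl, a ubiquitin ligase gene named for its value, at 15.9, 22.2 and 24.4 FPKM with IL-33 and 40.5, 34.5 and 28.4 FPKM with PBS (log2 change -0.71, SE 0.18, limma adjusted p = 0.0131). The kinase gene Jak1, which serves the IL-4 receptors, averaged 70.5 ± 3.41 FPKM with IL-33 and 96.2 ± 4.04 FPKM with PBS (log2 change -0.44, SE 0.07, limma adjusted p = 0.0019). Stat3, a signal transducer of IL-6 family and IL-10 receptors, fell by 0.46 (SE 0.06, limma adjusted p = 0.00137). The kinase genes Tyk2 and Btk were called higher as deposited (0.36 and 0.39) but not with equal totals, where none of the list were called higher and 16 lower (Tyk2 0.03 and Btk 0.05, limma adjusted p = 0.753 and 0.595). With that scaling 11.0% of all tested genes were called higher and 50.9% lower.

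In the list of feedback and STAT5 target genes 11 of 19 tested were called higher, 1 lower and 7 did not pass (median change 0.40), where 28.0% of all tested genes were called higher. With equal totals 8 were higher and 5 lower (median 0.10), against 11.0% and 50.9% of all tested genes. Fabp5, a fatty acid-binding protein gene, averaged 278 ± 36.1 FPKM with IL-33 and 59.5 ± 8.93 FPKM with PBS. The helix-loop-helix regulator gene Id1 averaged 69.9 ± 18.02 FPKM with IL-33 and 7.01 ± 1.97 FPKM with PBS (log2 change 3.15, SE 0.23, limma adjusted p = 0.000201). Clec7a and Il1rn rose by 1.82 (SE 0.11) and 1.52 (SE 0.14). The feedback genes were mixed. Cish, Socs1 and Socs2 were called higher (1.66, 0.40 and 0.76), and Socs3 and Pim1 did not pass (-0.14 and 0.21). With equal totals the call of Socs1 was lost (0.10, limma adjusted p = 0.425). Not every member of the list need depend on STAT5, and its part in these changes was not tested.

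In the list of STAT6 targets, Ccl17 and Arg1 passed the filter through the IL-33 libraries alone. Of the other 23 genes 16 were called higher, 1 lower and 6 did not pass, with a median change of 1.02 (with equal totals 13 higher and 4 lower, median 0.69). Among all tested genes 28.0% were called higher and 25.5% lower as deposited, and 11.0% and 50.9% with equal totals. The chemokine gene Ccl17 averaged 23.0 ± 2.46 FPKM with IL-33 and 0.408 ± 0.356 FPKM with PBS. Retnla, Ccl24 and Batf3 rose by 9.19 (SE 0.42), 3.84 (SE 0.21) and 1.504 (SE 0.09). The receptor genes that carry the IL-4 signal, Il4ra, Il2rg and Il13ra1, were not higher in any scaling tried.

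Among 20 macrophage identity genes and CSF1R targets 6 were called higher, none lower and 14 did not pass. Of all tested genes 28.0% were called higher and 25.5% lower. Most of the macrophage markers given beside Csf1r are also in this list, and C1qa, C1qb and Cd68, called there, are among the 6. The 2 counts are therefore not separate observations. The list had a median change of 0.34. The median was 0.00 with equal totals (2 higher, 3 lower), 0.10 without PBS replicate 1, and the higher calls dropped to 3 without IL-33 replicate 1. Cebpa, a myeloid transcription factor gene, rose by 0.98 (SE 0.12, limma adjusted p = 0.000997) and the oxysterol receptor gene Nr1h3 by 0.99 (SE 0.17, limma adjusted p = 0.00293). Spi1, which encodes PU.1, and Cd68 were called higher as deposited (0.36 and 0.43) but not with equal totals (0.02 and 0.09). The last list, of dendritic cell genes drawn up to go with FLT3, also held the ligand gene Flt3l. Not every member need therefore depend on FLT3. Of its 19 tested genes 7 were called higher, 6 lower and 6 did not pass (median -0.19). With equal totals 3 were higher and 11 lower, against 11.0% and 50.9% of all tested genes. Batf3 rose as above, Cd83 by 1.496 (SE 0.16) and Ccr7 by 1.02 (SE 0.12), and Zbtb46 fell by 0.63 (SE 0.07).

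**Figure D5:**
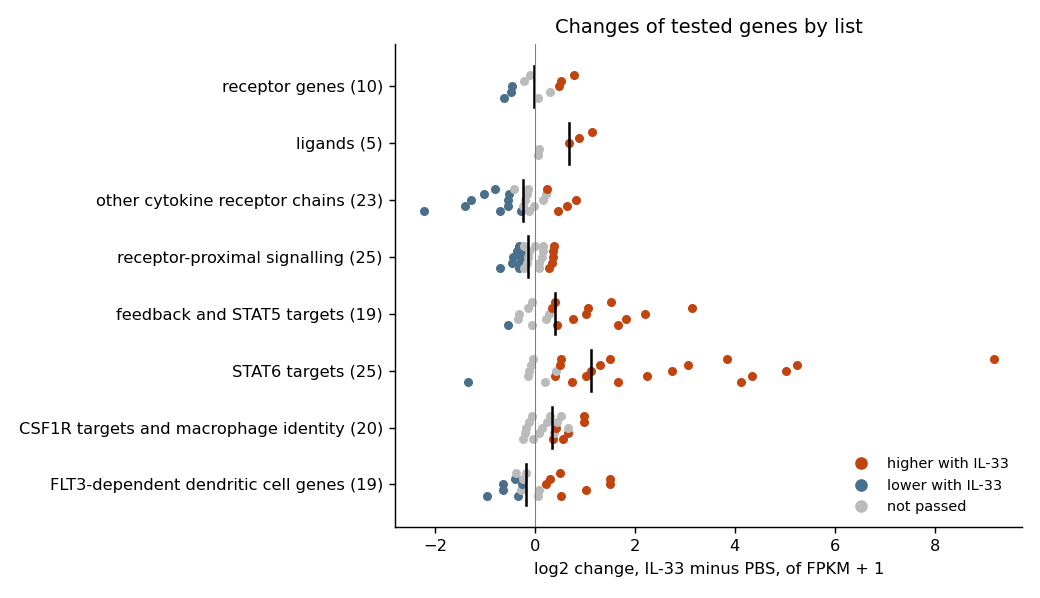
Change of each tested gene between IL-33 and PBS (horizontal axis, log2 of FPKM + 1) for the 10 receptor genes and 7 lists, with the number tested in brackets. Orange points were called higher, blue lower and grey did not pass, and black bars mark medians, from -0.24 for other cytokine receptor chains to 1.13 for STAT6 targets (1.02 without Ccl17 and Arg1).

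The genes closest in pattern were sought for the receptor gene with the smallest adjusted p in each direction, by Pearson correlation of log2(FPKM + 1) over the 6 libraries. These libraries form 2 groups, so the coefficients mostly record the difference between treatments. For Il3ra they were Kctd17 (r = 0.997), Ccdc91 (r = 0.997) and Bcam (r = 0.995), which rose by 1.02, 0.50 and 2.27. Bcam passed the filter through the IL-33 libraries alone. For Il2rg they were Fam134b (r = 0.999), Rnf43 (r = 0.998) and Cnst (r = 0.998), which fell by 0.62, 0.64 and 0.47.

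Genes that overlap the receptor loci set a limit, because the use of strand in counting is not given in the sources used here. Hmgxb3 overlaps Csf1r on the opposite strand and was at 5.75 to 6.54 FPKM with IL-33 and 8.47 to 8.85 FPKM with PBS, far below Csf1r. Antisense genes are annotated over Il3ra, Il4ra and Flt3, and another gene over Il2rg on its own strand. None of these 4 was listed under its annotated name in the libraries, and reads shared with them cannot be told apart from those of the receptors.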

How the data were processed

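Expression was measured by RNA sequencing in 3 IL-33 and 3 PBS libraries of splenic CD11c+ cells, made with a stranded mRNA kit per the labels' protocols. The authors deposited FPKM per gene for each library. Per the submitters' processing notes, the tools were Cuffnorm 2.2.1, TopHat2 2.0.13, SAMtools 0.1.19 and Bowtie2 2.2.3, and the build was mm10. Which annotation, scaling and strand setting Cuffnorm had is not given in the sources used here. Values were fitted as log2(FPKM + 1) with limma 3.58.1 in R 4.3.3 (variance trend, no block, two-sided), for genes of at least 1 FPKM in 3 libraries, and the fit was tested on simulated data. Ratios were given exact permutation tests with scipy 1.17.1. Figures used matplotlib 3.10.9. The alternatives were other pseudocounts, filters and scalings, no variance trend, a replicate block and leaving out each library. Positions came from GENCODE M21 of GRCm38, the assembly also called mm10.

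The receptor genes, the 7 pathway lists and the 15 marker lists were chosen with earlier results of these data known. Named were all receptor genes, every listed ligand, up to 4 called members of each other pathway list with the smallest adjusted p, up to 3 genes of a marker list in list order, and the 3 genes most like Il3ra and Il2rg. Batf3 counts in 3 lists. Other marker genes, such as those at 0 and Batf3, were named after their values were seen, as were Cish, the Socs genes and Pim1. Counts leave out genes that passed the filter through 1 group only where such genes are named, a choice made after seeing the data. Marker lists that touched no receptor result (neutrophil, monocyte, plasma cell, innate lymphoid, platelet and red cell) are summarised in the closing section.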

Additional observations from a re-analysis of the deposited data

How the results depend on the processing

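The 3 higher calls became 1 (Il3ra) with equal totals and 2 with quantile normalization or cyclic loess, and stayed at 3 with any 1 library left out. The 3 lower calls were 2 to 3 with a library left out, 2 without a filter, where Il13ra1 missed (adjusted p = 0.0575), and 4 with equal totals, where Il4ra joined. Il3ra, Il2rg and Flt3 kept their call in all 15 alternatives run. Other pseudocounts, a 5 FPKM filter, under which Il5ra was not tested, and no variance trend changed no receptor call. Signs that turned were all of changes below the threshold: Csf1r (-0.028 with equal totals, -0.14 with quantile normalization, -0.13 with cyclic loess), Csf2rb2 (-0.27 with equal totals, -0.048 to 0.131 with 1 library left out) and Il5ra (-0.39 to 0.0945 with 1 library left out). The cause was not tested. With 1 library left out, the log2 differences of the ratios ranged from -0.51 to -0.39 for Csf2rb2 over Csf2rb, 0.00 to 0.06 for Csf2ra over Csf2rb, -0.15 to 0.0869 for Il13ra1 over Il2rg, 0.26 to 0.45 for Il4ra over Il2rg and 0.75 to 1.08 for Csf1r over Flt3. Adding 1 to each FPKM left the sign of all 5.

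By correlation the replicate numbers paired the libraries weakly at most. Same-numbered deviations correlated at 0.07, -0.05 and 0.09, although 4 of 6 libraries correlated best with their own number. Platelet and red cell sums fell from replicate 1 to 3 in both groups (296, 87.3 and 36.3 FPKM with IL-33, 504, 175 and 66.1 FPKM with PBS). B cell and plasmacytoid dendritic cell sums did so too, whereas no other marker list kept 1 order in both groups. Whether the numbers mark shared handling was not tested. With the replicate block, calls over all genes were 2806 higher and 2452 lower, against 3230 and 2939 without it. The receptors then had 3 higher and 2 lower calls, Il13ra1 missing at an adjusted p of 0.0509. Depth is a limit for Il5ra and for the ligands at low levels, since absolute fragment numbers are unknown.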

Other observations

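Markers of cells that express other receptors of this family also moved. Beside the counts of calls that follow, 28.0% of all tested genes were called higher and 25.5% lower. Mpo passed the filter through the IL-33 libraries alone, and of the other 9 tested neutrophil markers 7 were called higher and 1 lower. The neutrophil list had sums of 1225 to 2469 FPKM with IL-33 and 492 to 806 FPKM with PBS, while the G-CSF receptor gene Csf3r, which neutrophils carry, was at 30.0, 29.3 and 20.1 FPKM with IL-33 and 39.4, 34.6 and 41.9 FPKM with PBS (log2 change -0.54, limma adjusted p = 0.0212). Both directions stand beside each other in the same libraries, and Csf3r is named because of its values. Without Tnfrsf17, which likewise passed through IL-33 libraries, 7 of 9 plasma cell markers were called higher and none lower, and the list had sums of 508 to 542 FPKM with IL-33 and 190.4 to 249 FPKM with PBS. The 12 monocyte markers were split, 3 higher and 4 lower, with sums of 2485 to 2924 FPKM with IL-33 and 2291 to 2744 FPKM with PBS, and the higher calls dropped to 1 without IL-33 replicate 1, IL-33 replicate 2 or PBS replicate 2. Of the group 2 innate lymphoid markers Il1rl1, Areg and Arg1 passed through the IL-33 libraries alone, and of the other 6 tested 1 was called higher and 4 lower, with list sums of 51.9 to 226 FPKM with IL-33 and 51.8 to 131 FPKM with PBS. The platelet and red cell markers had sums of 36.3 to 296 FPKM with IL-33 and 66.1 to 504 FPKM with PBS.

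Crlf2, the TSLP receptor chain related to the common gamma chain, was at 60.6, 54.4 and 45.1 FPKM with IL-33 and 39.6, 37.3 and 37.3 FPKM with PBS (log2 change 0.47, limma adjusted p = 0.00931; 0.13 with equal totals, adjusted p = 0.266), while Il7r, its partner, was at 7.36, 8.003 and 9.77 FPKM with IL-33 and 15.8, 12.7 and 9.87 FPKM with PBS (-0.54, limma adjusted p = 0.0287). Il2rb, a partner of the common gamma chain on NK and T cells, was at 14.4, 26.1 and 16.9 FPKM with IL-33 and 56.1, 47.0 and 47.9 FPKM with PBS. Il2ra was at 2.59, 3.01 and 2.80 FPKM with IL-33 and 1.52, 0.904 and 1.05 FPKM with PBS (0.83, limma adjusted p = 0.00207). These 4 are named because of their values.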
